A study of Mus musculus with 6 samples.

Results

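The miR-130 and miR-301 family was followed in 6 tumours grown from Hepa1-6 cells, a mouse hepatoma line, in C57BL/6 mice. Its 4 members, mmu-miR-130a-3p, mmu-miR-130b-3p, mmu-miR-301a-3p and mmu-miR-301b-3p, named without the species prefix from here on, were taken by name from the 1881 mouse miRNAs on the array, and 3 of the 4 were among the 388 miRNAs bright enough to be tested. Every mouse had received 0.1 ml of cell suspension in the right flank, and the labels give an age of 28 d for all. The 3 mice of the GLE group were treated with GLE, an abbreviation left unexplained in the labels, with a daily dose of 0.023 g in all per 10 g mouse. In the model group, 3 mice received 0.2 ml of saline once a day for 28 days, although their labels also call them untreated. Total RNA of each tumour, carrying Cy3, was hybridised to an array of its own. The tumours are flank implants of 1 cell line in a host with its own immune and stromal cells. Of 5 hepatocyte miRNAs, miR-122-5p, which marks differentiated hepatocytes, was detected on 2 of the 6 arrays and miR-802-5p on 0. miR-192-5p and miR-148a-3p were detected on 6 and miR-194-5p on 5.

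A mature miRNA guides the silencing complex to messenger RNAs mainly through its seed, the bases next to its 5′ end, so miRNAs with the same seed share many predicted targets even when they come from different genes. The miR-130 and miR-301 family is known for repressing the p53-responsive gene Tp53inp1 and the adipocyte regulator Pparg. Its members have been described as growth-promoting in several epithelial cancers, liver cancer among them.

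The mature sequences below, from the RefSeq table of build GRCm38.p6, show what the measured members share and where they part. They run 5′ to 3′, and capitals mark the seed, bases 2 to 8. RefSeq entries were matched for 3 of the 4 members.
miR-130a-3p: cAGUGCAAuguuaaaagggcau
miR-130b-3p: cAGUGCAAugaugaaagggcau
miR-301a-3p: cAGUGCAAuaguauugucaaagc
The seed is the same in all 3. Counted from the 5′ end without gaps, miR-130a-3p and miR-130b-3p were identical at 20 of 22 bases and miR-130a-3p and miR-301a-3p at 12 of 22. miR-301b-3p is named only. In the RefSeq gene table, Mir130a lay in no other gene, with Ypel4 as the nearest coding gene. Mir301 lay within Ska2, and Mir130b and Mir301b both lay within 2610318N02Rik, so the 4 members come from 3 loci.

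The array reads these miRNAs through probes that run from their 3′ end into part of the seed. The longest probes of miR-130a-3p, miR-130b-3p and miR-301a-3p reach to bases 4, 5 and 3 of the miRNA. The probes decide how well close relatives are kept apart. The longest probe of each member is given here, 5′ to 3′, in lower case.
miR-130a-3p probe: atgcccttttaacattgca
miR-130b-3p probe: atgccctttcatcattgc
miR-301a-3p probe: gctttgacaatactattgcac
miR-301b-3p probe: gctttgacaataccattgca
The files place these probes, on mm9, at chromosome 2, 84581317 to 84581334, at chromosome 16, 17124209 to 17124225, at chromosome 11, 86926559 to 86926578, and at chromosome 16, 17124551 to 17124569, in the order listed. Each span as given is 1 base shorter than its probe. Probes of miR-130a-3p and miR-130b-3p differed at 2 positions over the 17 or 18 bases compared. Those of miR-301a-3p and miR-301b-3p differed at 1 position over 17 to 20 bases, the closest pair in the family. Binding of one member to the probe of another was not tested.

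miR-301b-3p was not detected in any tumour. Of the 171 spots used for its 4 probes over the 6 arrays, 0 were well above background. The probes' mean signals ran from −2.77 to 3.70 intensity units, while the dimmest detected probe of an array had 11.8 to 13.2. No level or fold is given for it. miR-301a-3p, whose probes are the most similar, was well above background on all 178 of its used spots, and miR-130a-3p on all 173. miR-130b-3p passed on 156 of 174 spots. On the array of model replicate 2, its shorter probe passed on 2 of 15 spots and did not count as detected. Spots of a probe also differed most for miR-130b-3p: where a probe was detected, the coefficient of variation over its spots was 1.01% to 2.59% for miR-130a-3p, 3.16% to 13.1% for miR-301a-3p and 7.35% to 17.4% for miR-130b-3p.

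**Figure D1:**
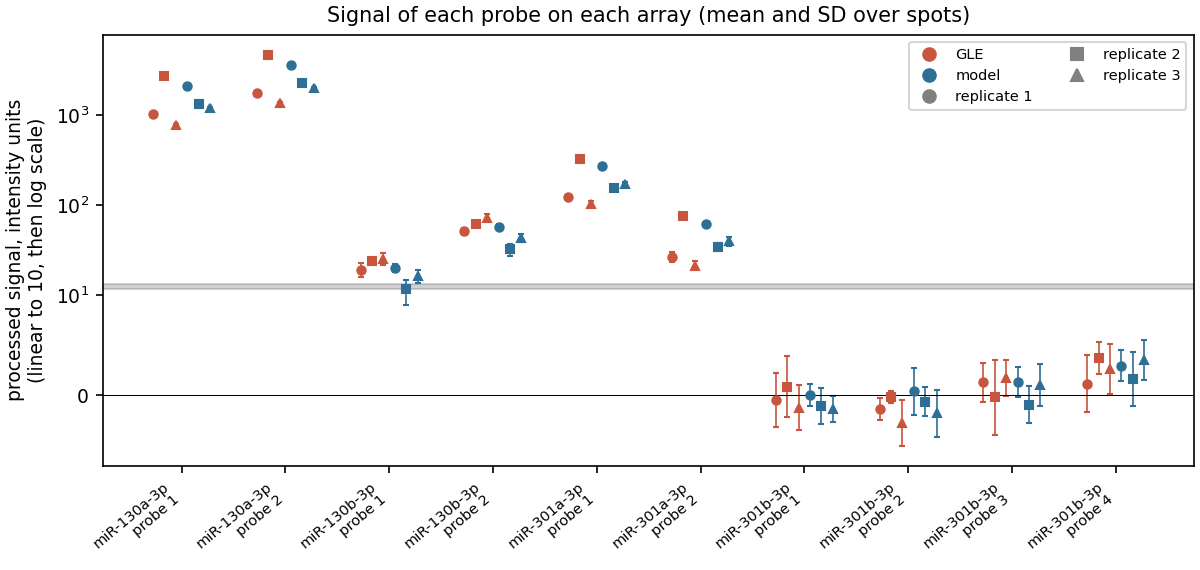
Processed signal (intensity units, linear to 10 and logarithmic above) of every probe of the 4 members on the 6 arrays, with probes numbered in the order of their identifiers. Points are means over spots, bars are SDs over spots, and the grey band spans the dimmest detected signals of the arrays, 11.8 to 13.2, above which no probe of miR-301b-3p rose.

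Levels are given below as log2 of the signal divided by the array's 75th percentile, so 0 is that percentile, and they compare arrays for 1 miRNA, not miRNAs with each other. For miR-130a-3p, described in endothelial cells as a repressor of the anti-angiogenic homeobox genes Meox2 and Hoxa5, GLE replicates 1, 2 and 3 had levels of 2.71, 3.29 and 2.09. In model replicates 1, 2 and 3 it was 3.14, 2.91 and 2.87. The highest and the lowest tumour were both GLE tumours, and the model tumours lay between them. The means were 2.70 ± 0.60 in GLE and 2.97 ± 0.14 in model tumours (SD, n = 3).

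miR-301a-3p, which is known to repress Nkrf, an inhibitor of NF-kappa-B target genes, stood at −1.83, −1.22 and −2.37 in GLE replicates 1, 2 and 3. The model replicates 1, 2 and 3 had −1.27, −1.66 and −1.35. GLE replicate 2 was again the highest tumour and GLE replicate 3 the lowest, and the ranges overlapped. The means were −1.81 ± 0.57 in GLE and −1.43 ± 0.20 in model tumours (SD, n = 3).

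miR-130b-3p, which has been described in tumour-initiating liver cancer cells as a repressor of Tp53inp1, showed the opposite order among the GLE tumours after scaling. GLE replicates 1, 2 and 3 had levels of −2.69, −3.26 and −2.49. Model replicates 1, 2 and 3 had −3.21, −3.55 and −2.99. Here GLE replicate 3 was the highest of the 6 tumours. GLE replicates 1 and 3 lay above all model tumours, while GLE replicate 2 lay below model replicates 1 and 3. The means were −2.81 ± 0.40 in GLE and −3.25 ± 0.28 in model tumours (SD, n = 3), not far above the floor of −4.25 that stands for the dimmest detected signal. Before scaling between arrays, the signals of miR-130b-3p were 35.3, 42.3 and 48.7 in GLE replicates 1, 2 and 3. Model replicates 1, 2 and 3 had 38.5, 22 and 29.8. GLE replicates 2 and 3 then lay above all model tumours, and GLE replicate 1 below model replicate 1. The order of the tumours thus depended on the scaling.

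**Figure D2:**
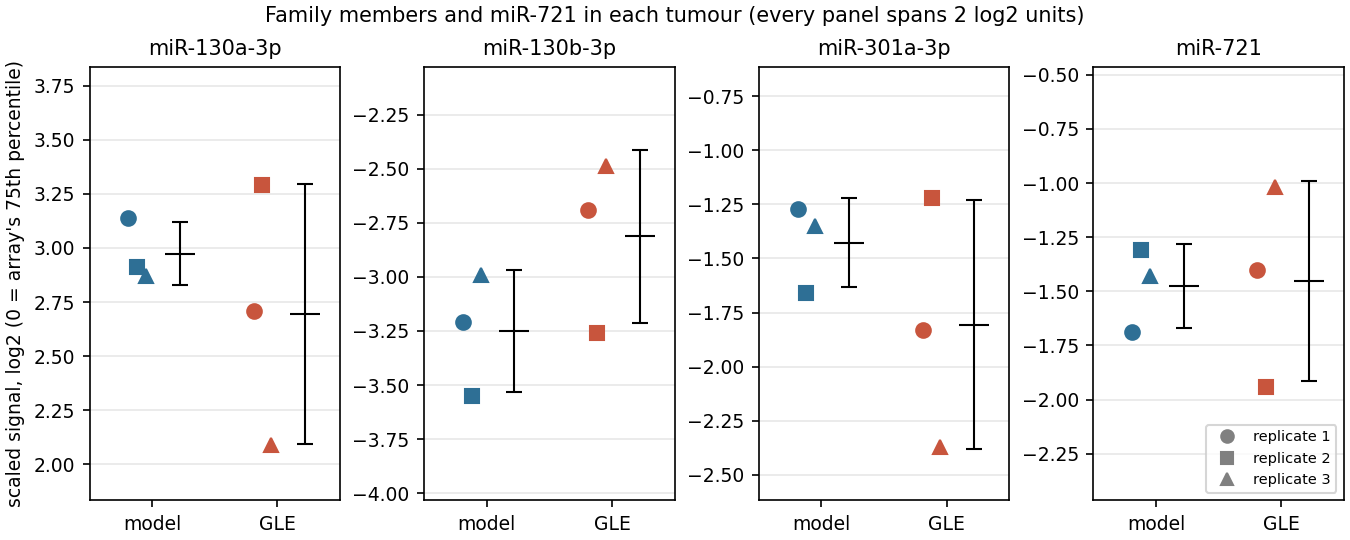
Level (log2 of the signal over the array's 75th percentile) of the 3 measured members and of miR-721, which has the same seed, in each tumour. Points are tumours, shaped by replicate number, bars are the mean and SD of 3 tumours, and every panel spans 2 log2 units. GLE replicate 3 is lowest for miR-130a-3p at 2.09 and for miR-301a-3p at −2.37, and highest for miR-130b-3p at −2.49.

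The design compared tumours of GLE-treated mice with those of the model group. No member passed the test. On the log2 scale, GLE minus model, miR-130a-3p differed by −0.28 ± 0.31 and miR-301a-3p by −0.38 ± 0.30, while miR-130b-3p differed by 0.43 ± 0.26 (SE of the limma fit, 3 arrays per group). As folds, GLE over model, these are 0.826 with a 95% interval of 0.501 to 1.36, 0.768 with 0.469 to 1.26, and 1.35 with 0.885 to 2.06. The adjusted p was 0.935 for each of the 3 members (limma, Benjamini-Hochberg over 388 miRNAs). Their unadjusted p-values in the limma fit were 0.395, 0.247 and 0.137, and the two-sided exact permutation p-values 0.5, 0.4 and 0.3, where 0.1 is the smallest possible. By probe, the differences were −0.29 and −0.27 for miR-130a-3p and −0.35 and −0.41 for miR-301a-3p. For miR-130b-3p the probe detected on all 6 arrays gave 0.42. Its shorter probe gave 0.44, but it was detected on 3 GLE and 2 model arrays and was kept only through the GLE group, so its value lends no support to the first. The levels, tests and correlations of miR-130b-3p average these 2 probes and so contain the shorter one. With only the brightest probe of each miRNA, miR-130b-3p differed by 0.42 ± 0.27 (limma unadjusted p = 0.157, adjusted p = 0.965).

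The whole array gives the scale for these values. With limma, 0 of 388 miRNAs passed the adjusted threshold of 0.05, a share of 0%, and 6, or 1.55%, had an unadjusted p under 0.05. None of the 3 measured members was among those 6. The groups did not overlap in 0 of the 3 members, against 26 of the 388 miRNAs, or 6.70%, of which 18 were higher in GLE tumours (4.64%) and 8 lower (2.06%). The central 95% of the 388 differences spanned −0.43 to 0.70, with a median of 0.008, and each of the 3 members lay within that range. A lower GLE mean was found in 49.0% of all tested miRNAs and in 2 of the 3 members, and a higher one in 51.0% and in 1 of the 3. Without GLE replicate 2, 2 of the 388 miRNAs passed in limma and 107 had an unadjusted p under 0.05; the members were not among the 2. In bulk tumour RNA, fewer cells of a type and less RNA per cell cannot be told apart.

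**Figure D3:**
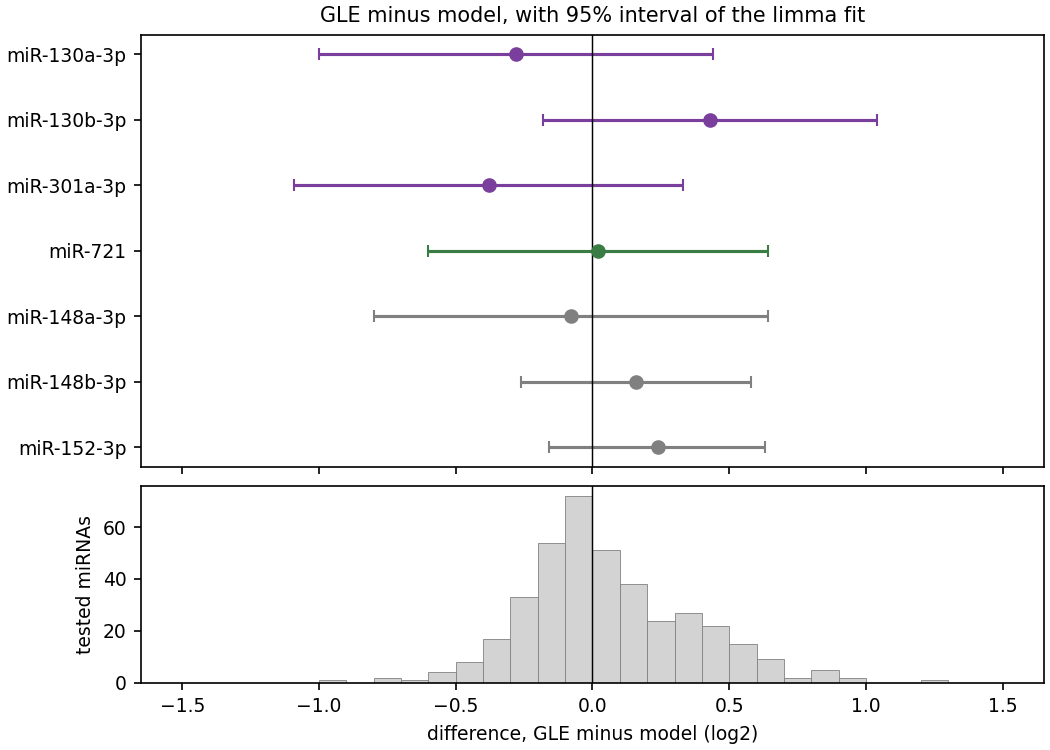
Upper panel: difference between GLE and model tumours (log2) with its 95% interval from the limma fit, for the 3 measured members, for miR-721 with the same seed and for 3 miRNAs with a shifted seed. Lower panel: number of the 388 tested miRNAs per difference of that size; every interval shown spans 0.

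Single GLE tumours moved all 3 values. Without GLE replicate 3, miR-130a-3p differed by 0.028, miR-301a-3p by −0.10 and miR-130b-3p by 0.27, and without GLE replicate 2 the differences were −0.57, −0.67 and 0.65, in that order (limma adjusted p = 0.158, 0.105 and 0.102). For miR-130b-3p the difference was 0.28 without model replicate 2, and under the normexp background correction it was 0.13, with miR-301a-3p at −0.19. That correction was run with 50 intensity units added to every signal, which shrinks log2 differences most for dim miRNAs.

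Whether members with one seed but from different loci differed in their response was compared within arrays, for the 3 pairs of measured members. The log2 value of miR-130a-3p minus that of miR-301a-3p stood at 4.55, 4.51 and 4.45 across GLE replicates 1, 2 and 3. Model replicates 1, 2 and 3 had 4.41, 4.57 and 4.22. This difference between a chromosome 2 and a chromosome 11 miRNA was nearly level over the tumours. Between groups it moved by 0.10 ± 0.10 (SE), with a 95% interval of −0.19 to 0.39 (exact permutation p = 0.5, adjusted p = 0.5 over 3 pairs). The size of this value was not stable: it was 0.19 without model replicate 2 and 0.016 without model replicate 3. It was 0.22 with quantile normalisation, 0.26 from the values of the authors' deposited table, and −0.058 under normexp. The exact permutation p was 0.1, the smallest possible, for 0.19, 0.22 and 0.26 (adjusted p = 0.3 for each) and 0.9 for the other two.

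miR-130a-3p minus miR-130b-3p, the pair with the most similar sequences, stood at 5.41, 6.55 and 4.58 across GLE replicates 1, 2 and 3, and model replicates 1, 2 and 3 had 6.34, 6.46 and 5.86. GLE tumours thus held both the largest and the smallest value. The group means differed by −0.71 ± 0.60, with an interval of −2.37 to 0.96 (exact permutation p = 0.4, adjusted p = 0.5). For miR-130b-3p minus miR-301a-3p the group difference was 0.81 ± 0.56, with an interval of −0.76 to 2.38 (exact permutation p = 0.4, adjusted p = 0.5). Under normexp these values were −0.38 and 0.32. Without GLE replicate 3 they were −0.24 and 0.37, and without GLE replicate 2 they were −1.23 and 1.33 (exact permutation p = 0.1 for each, the smallest possible with 2 GLE and 3 model arrays, adjusted p = 0.15). The difference in sign between miR-130b-3p and the other members was thus not larger than the spread between arrays, while the intervals also hold differences of over 1 log2 unit.

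Over the 6 tumours, miR-130a-3p and miR-301a-3p ran together. Their correlation was r = 0.96 (Pearson, exact permutation p = 0.00417, adjusted p = 0.0125 over 3 pairs) and rho = 0.94 (Spearman, exact permutation p = 0.0167, adjusted p = 0.05). Without the 2 arrays farthest from the median of miR-130a-3p, GLE replicates 2 and 3, r was 0.80. Under the normexp background correction it was 0.86 with an adjusted exact permutation p of 0.0562. High correlations were common on these arrays. Of the 387 other tested miRNAs, 20 had an r with miR-130a-3p at least as high as that of miR-301a-3p. For miR-301a-3p, 9 had an r at least as high as that of miR-130a-3p. Each count includes the compared member itself.

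miR-130b-3p ran against both. Its r was −0.79 with miR-130a-3p (exact permutation p = 0.0514, adjusted p = 0.0771; rho = −0.83, p = 0.0583, adjusted p = 0.0875) and −0.70 with miR-301a-3p (exact permutation p = 0.112, adjusted p = 0.112; rho = −0.66, p = 0.175, adjusted p = 0.175). Without the 2 arrays farthest from the median, r was −0.59 for the first pair and −0.96 for the second. The arrays left out differed: GLE replicates 2 and 3 for the first pair, GLE replicate 3 and model replicate 2 for the second. Neither relation passed after adjustment. Both depended on the scaling between arrays: with no scaling, r was 0.043 and 0.052. Of the 387 other miRNAs, 97 had an r with miR-130a-3p at least as low as that of miR-130b-3p. For miR-130b-3p, 26 had an r at least as low as that of miR-130a-3p. The compared member itself is again in each count.

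**Figure D4:**
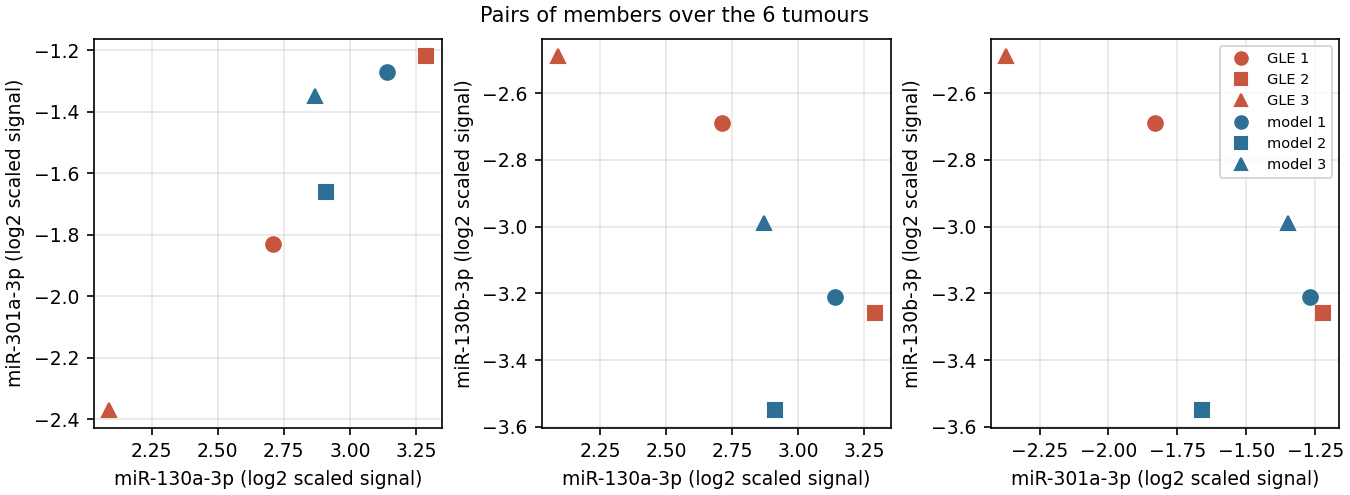
Levels (log2 of the signal over the array's 75th percentile) of each pair of measured members, with 1 point per tumour, coloured by group and shaped by replicate number. miR-301a-3p rises with miR-130a-3p (r = 0.96), while miR-130b-3p falls with both (r = −0.79 and −0.70 with this scaling; 0.043 and 0.052 with no scaling).

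The miRNAs outside the family whose levels followed each member most closely over the 6 arrays were different for the 2 sides, as a description without a test. For miR-130a-3p they were miR-106b-5p, miR-30e-5p and miR-25-3p, each at r = 0.99. For miR-301a-3p they were miR-17-5p and miR-93-5p at r = 0.99 and miR-20b-5p at 0.98. For miR-130b-3p they were miR-140-3p at r = 0.99 and miR-10b-5p and miR-195a-5p at 0.98. The first 6 had differences of −0.16 to −0.35, GLE minus model, and the last 3 of 0.23, 0.72 and 0.64, none of which passed the limma test. The median r over all miRNAs outside the family was −0.36 for miR-130a-3p, −0.33 for miR-301a-3p and 0.23 for miR-130b-3p. All these miRNAs share the same arrays and scaling.

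miRNAs of other cell types moved over the same tumours. Averaged over 7 immune cell miRNAs, each centred on its own mean, GLE replicates 1, 2 and 3 had 0.49, −0.37 and 1.02. Model replicates 1, 2 and 3 had −0.49, −0.62 and −0.02. All 7 were tested, 7 had a positive difference, against 51.0% of all 388 tested miRNAs, and 0 passed. These 7 were read in the same tumours and listed with earlier results of these data known, so they are not independent observations. Their summed scaled signal was 5.73 to 16.1 in GLE and 4.72 to 7.38 in model tumours. For 1 of the 7, miR-146a-5p, named here after its values were seen, the groups did not overlap. It was higher in all 3 GLE tumours by 0.63 ± 0.24 (limma unadjusted p = 0.0345, adjusted p = 0.935). Among all 388, 18 (4.64%) were higher in GLE tumours without overlap. The 6 fibroblast and smooth muscle miRNAs averaged 0.28, −0.44 and 0.98 in GLE replicates 1, 2 and 3. In model replicates 1, 2 and 3 they averaged −0.29, −0.51 and −0.02. Of these, 5 of 6 were positive, against the same 51.0%, and 0 passed. Their summed signal was 1.62 to 5.22 in GLE and 1.42 to 2.26 in model tumours. Centred in the same way, miR-130b-3p stood at 0.34, −0.23 and 0.54 and at −0.18, −0.51 and 0.04, with the same order of the GLE tumours after scaling. miR-130a-3p had the reverse order, at −0.12, 0.45 and −0.75 in GLE and 0.30, 0.08 and 0.04 in model tumours. The part of these cell types in the members' values was not tested.

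The other cell type lists were smaller. Of the endothelial pair, miR-126a-5p was detected on 3 arrays and not tested, and miR-126a-3p was tested. Only counts and per-array means were planned for the cell type lists, so the values of miR-126a-3p are an addition. It was higher in all 3 GLE tumours than in any model tumour, as were 4.64% of all 388 tested miRNAs. The difference was 0.49 ± 0.19 with a 95% interval of 0.05 to 0.94 (limma unadjusted p = 0.0346, adjusted p = 0.935). The hepatocyte list had 3 of 5 tested, 2 of them positive, and its mean centred level was highest in GLE replicate 2, at 1.80, as was that of the epithelial list, at 1.22, where 2 of 5 were tested and 0 were positive. The muscle list (3 of 3 tested, 2 positive) and the erythrocyte list (2 of 3 tested, 0 positive) were highest in GLE replicate 1, at 1.24, and in model replicate 3, at 0.88. In these 5 lists 0 members passed the limma test after adjustment over all miRNAs. miR-802-5p and miR-200c-3p were detected on 0 arrays.

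Other miRNAs of the array with the same seed were found from their RefSeq sequences, and they show how far the seed goes beyond the family's names. There were 4, and capitals again mark bases 2 to 8.
miR-721: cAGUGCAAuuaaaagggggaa
miR-130c: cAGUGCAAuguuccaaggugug
miR-6341: cAGUGCAAugauauugucacuau
miR-6389: cAGUGCAAuguuaaacuuugc
miR-721, whose gene lies within Cux1, was the one of the 4 that was measured, and the other 3 were detected on 0 arrays. GLE replicates 1, 2 and 3 had levels of −1.40, −1.94 and −1.02, and model replicates 1, 2 and 3 had −1.69, −1.31 and −1.43. GLE replicate 3 was its highest tumour and GLE replicate 2 its lowest, as opposed to miR-130a-3p and miR-301a-3p. The groups differed by 0.02 ± 0.26 (limma adjusted p = 0.977). Over the arrays it had an r of −0.92 with miR-130a-3p, −0.88 with miR-301a-3p and 0.54 with miR-130b-3p, given as a description. The coefficient of variation over the spots of a probe reached 24.6%. Before scaling between arrays, its signals were 77.7, 95 and 119 in GLE replicates 1, 2 and 3. Model replicates 1, 2 and 3 had 97.1, 93.5 and 78.5. GLE replicate 1 was then its lowest tumour, so the order depended on the scaling. No r without scaling is given for miR-721. Its 4 probes are short, at 12 to 15 bases, and cover bases 7 to 21 of the miRNA at most, so they read little of the seed.

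The other arms of the hairpins, miR-130a-5p, miR-130b-5p, miR-301a-5p and miR-301b-5p, which are the strands usually discarded, were detected on 0 of the 6 arrays, so the 2 arms could not be compared. miR-454, which is known as a hairpin neighbour of miR-301a, was not found by name among the miRNAs of the array, so it was not analysed.

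The miR-148 and miR-152 family carries 6 bases of the seed, AGUGCA, shifted by 1 base, and is shown for that overlap. Capitals mark these bases, which start at position 3 here and at position 2 in the miR-130 and miR-301 family.
miR-148a-3p: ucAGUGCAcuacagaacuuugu
miR-152-3p: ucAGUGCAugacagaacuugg
All 3 of its members were tested and 0 passed. miR-148a-3p differed by −0.08 ± 0.30, and its levels of −0.69, −0.15 and −1.31 in GLE replicates 1, 2 and 3 had the same order as those of miR-130a-3p and miR-301a-3p. The others had different orders. For miR-152-3p, GLE replicates 1, 2 and 3 had −1.30, −1.12 and −0.95, and the groups differed by 0.24 ± 0.17. For miR-148b-3p they had −3.48, −3.54 and −3.74, and the groups differed by 0.16 ± 0.18. The 1 probe used for miR-148b-3p was detected on 3 GLE and 2 model arrays, so it was tested only through the GLE group, where it is higher, and no median over the 3 is given.

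Each array detected 378 to 458 miRNAs. All arrays lay on 1 slide and were scanned together. On that slide the 3 GLE arrays carry one number and the 3 model arrays another in the file headers, so position on the slide and group cannot be told apart. With 3 arrays a group, the 95% intervals of the 388 differences reached a median of 0.54 log2 units to either side.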

How the data were processed

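Per the labels, total RNA of 6 mouse tumours was extracted with TRIzol, labelled with Cy3 and hybridised to one-colour Agilent miRNA arrays, 1 per mouse. The authors' scanner files, made with Agilent Feature Extraction 10.7.1.1 per the file headers and the submitters' processing notes, give intensity on a linear scale with background and a spatial trend subtracted and no scaling between arrays. The authors also deposited a table of log2 values for each miRNA, with no normalization stated; it served as an alternative.

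Control spots were dropped, as were the 1401 to 1883 outlier spots of each array, and the rest were averaged per probe. Detection of a probe required a share of its spots above 0.5 to be well above background. Signals were divided by the array's 75th percentile, taken over 636 probes that all 6 arrays detected, with a log2 floor of −4.25, taken from the dimmest detected signals. Each miRNA was represented by the average of those probes that every array of 1 or both groups detected, which left 388 of 1881 miRNAs. Groups were compared with limma 3.58.1 in R 4.3.3 (eBayes, two-sided; residual degrees of freedom 4, prior 3.05). P-values were adjusted by Benjamini-Hochberg over all 388, at a threshold of 0.05. The fit was tested on simulated data. Differences between members were taken within arrays, with intervals from an unmoderated linear fit and two-sided exact permutation over 20 relabelings. Correlations used exact permutation over 720 pairings. Named miRNAs are the members, same-seed entries and other arms, the 3 closest miRNAs per member, and lists by their counts; others are marked where named. miR-148a-3p stands in both the hepatocyte and the shifted-seed list. One further list is not reported here. The members and lists were chosen with earlier results of these data known. Scaling, background correction, outlier spots, spot and probe averaging, filters, an intensity trend, the replicate block, the deposited table and leaving out each array were tried as alternatives.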

Additional observations from a re-analysis of the deposited data

How the results depend on the processing

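The differences of miR-130b-3p and miR-301a-3p kept their direction and stayed short of the limma threshold under every alternative run. Both within-array differences that involve miR-130b-3p kept their direction; their exact permutation p cannot go below 0.1, so its side of the threshold shows no stability. With an array left out, miR-130a-3p ran from −0.57 (without GLE replicate 2) to 0.028 (without GLE replicate 3), and 0 to 2 miRNAs of 388 passed in limma, the 2 without GLE replicate 2, where 107 had an unadjusted p under 0.05. Under normexp, miR-130a-3p minus miR-301a-3p turned to −0.058, and r between these members was 0.86 (adjusted exact permutation p = 0.0562), short of the threshold. With no scaling, r of miR-130b-3p was 0.043 with miR-130a-3p and 0.052 with miR-301a-3p. With the median over spots, r of miR-130a-3p with miR-130b-3p was −0.84 and passed (adjusted exact permutation p = 0.0479). Normexp signals carried an added 50 intensity units, which shrinks log2 differences most for dim miRNAs. In the main processing, signals before scaling ran from 22 to 48.7 for miR-130b-3p and from 62 to 200 for miR-301a-3p. For miR-130a-3p they ran from 1064 to 3680. The part of this offset in the normexp values was not tested, nor was the cause of the other changes. Quantile normalisation and the deposited table gave 11 and 10 miRNAs with an unadjusted p under 0.05, against 6, and 0 that passed.

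Deviations of same-numbered tumours correlated at −0.62, −0.18 and 0.37 for numbers 1, 2 and 3. These 3 values cannot decide whether the numbers pair the mice, since small shared effects would leave low correlations too. The main fit assumed no pairing. With the replicate block, 0 miRNAs passed, 17 had an unadjusted p under 0.05, and miR-130b-3p stood at 0.43 (limma adjusted p = 0.887). A block for slide or scan was not run, since all arrays share 1 slide and scan, and correlations were not taken over 5 arrays.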
